A study of Mus musculus with 12 samples.

Results

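The detoxification enzyme families comprised 136 protein-coding genes of the 23469 gene IDs in the count table of a mouse skin RNA-seq study. They were chosen by symbol alone: cytochrome P450 genes of families Cyp1, Cyp2, Cyp3 and Cyp4, glutathione S-transferase genes of the Gsta, Gstm, Gsto, Gstp and Gstt classes, UDP-glucuronosyltransferase genes of Ugt1 and Ugt2, and aldehyde dehydrogenase genes (Aldh). Of these, 78 were P450 genes, 47 of them Cyp2, and 19 were Gst, 18 Ugt and 21 Aldh genes. Cyp2g1, Gsta2 and Cyp4f39 were left out of the set.

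The skin came from the shaved backs of BALB/c mice, shaved on day 0, with a gauze patch put on at day 1, taken off at day 4 and the skin collected on day 5. The 12 libraries fall into 4 groups of 3: labelled-null ASP, labelled-null SAL, wild-type ASP and wild-type SAL. The ASP patch held 200 µg of an extract of the mould Aspergillus fumigatus, and SAL is a treatment name that the labels do not spell out. The genotype set against wild type is titled SCCA2KO, described as Serpinb3a null in the design and as Serpinb3a-transgenic in the genotype field, on the same BALB/c strain. Serpinb3a itself, a protease inhibitor gene of the epidermis, was counted higher in those libraries, at 4.71 ± 3.05 CPM in 6 labelled-null libraries and 0.685 ± 0.409 CPM in 6 wild-type libraries (SD, n = 6 each). The 2 sets of 6 did not overlap (log2 fold change 2.48 ± 0.46, adjusted p = 0.258 in edgeR), so the Serpinb3a counts go against the name, although near-identical paralogs can share its reads, and the genotype is called labelled-null throughout. No separate animals are named for the replicates, so p-values measure the spread between these libraries, which may be technical.

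Detoxification proceeds in stages. P450 enzymes, fed with electrons by the reductase Por, and aldehyde dehydrogenases oxidise foreign chemicals and the body's own retinoids, steroids and fatty acids. Glutathione S-transferases then couple reactive products to glutathione, and UDP-glucuronosyltransferases couple them to glucuronic acid. In skin these enzymes are known for meeting chemicals at the surface, for setting retinoic acid levels and for handling the lipids of the barrier and sebum. Many of the same genes are far better known from liver, and receptors such as the aryl hydrocarbon receptor (Ahr) and the stress factor Nfe2l2 drive some of them.

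Several rows of the table rest on sequence that more than one gene carries, which decides how far they can be read apart. Of the 136 members, 88 share at least 1 run of 50 bases with the transcripts of another gene of the 4 superfamilies, and 16 share over 50% of their runs. The 8 Ugt1a rows are the clearest case, since the locus joins a different first exon to the same later exons. All 8 share 1264 such runs. Gstp1 and Gstp2 are neighbouring copies sharing 481 runs, and Gstm1 and Gstm3 share 124. One 50-base coding run of each set is printed here to show what a read of that length cannot separate (GRCm38, with strand). Lower case is used throughout, since no base differs.
Ugt1a1 and the other 7 Ugt1a rows, chr1:88215044-88215093, plus strand: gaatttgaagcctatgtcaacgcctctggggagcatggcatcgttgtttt
Gstp1, chr19:4037327-4037376, minus strand: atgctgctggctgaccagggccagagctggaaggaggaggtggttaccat
Gstp2, chr19:4041621-4041670, minus strand: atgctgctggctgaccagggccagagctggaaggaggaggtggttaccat
Gstm1, chr3:108014963-108015012, minus strand: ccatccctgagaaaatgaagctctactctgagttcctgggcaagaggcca
Gstm3, chr3:107966297-107966346, minus strand: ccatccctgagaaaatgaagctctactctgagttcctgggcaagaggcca

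In the counts, Ugt1a9 and Ugt1a10 held the same number in 9 of 12 libraries, and their ratio lay between 1 and 1.014. Ugt2a1 and Ugt2a2 were equal in all 12. The Gstp2 count was 0.759 to 0.870 of the Gstp1 count in every library, while Gstm3 stood at 0.143 to 0.202 of Gstm1. The Ugt1a rows are therefore described as 1 locus and the Gstp1 and Gstp2 rows as a pair, and each of these genes is uncertain on its own.

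**Figure D1:**
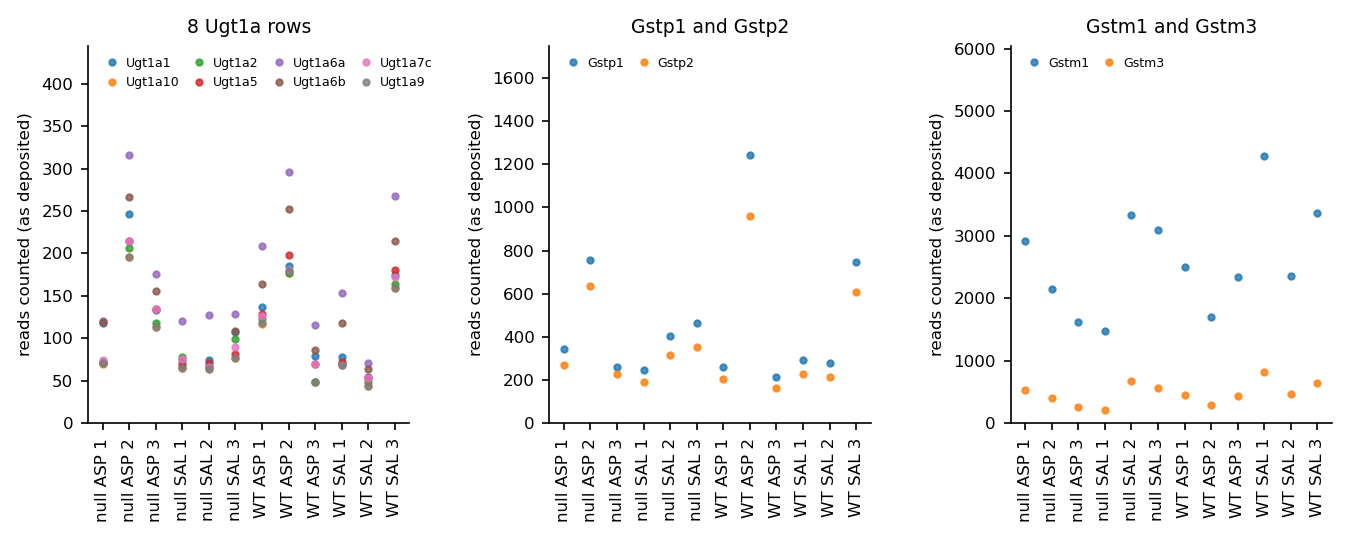
Deposited read counts (y axis, from 0) in each of the 12 libraries (x axis) for the 8 Ugt1a rows, for Gstp1 and Gstp2, and for Gstm1 and Gstm3; each point is 1 library and 1 gene. The Ugt1a rows go up and down together from library to library, Gstp2 stays at 0.759 to 0.870 of Gstp1, and wild-type ASP 2 is the highest library for the Gstp pair.

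Upstream sequence was compared for 114 members with a RefSeq promoter window (GRCm38.p6), 250 bases before to 50 after the start, in 130 windows. A pair of short motifs were searched on both strands, GCGTG, the core bound by Ahr with its partner Arnt, and TGACNNNGC, the core of the antioxidant response element. The first was present in 28 of the 130 windows (21.5%) against 32.4% of all 32841 windows, and in 23 of 68 windows of tested members (33.8%). The second was present in 10 windows (7.69%) against 12.4% of all, and in 6 of 68 of tested members (8.82%). The 250 bases before the start of Cyp1a1 and Cyp1b1, the textbook Ahr targets, are shown because their levels are read below as the most direct sign of that receptor. Capitals mark GCGTG or its reverse complement, of which each gene holds 1, and neither holds the other motif. A match is a description of letters and not a site.
Cyp1a1, chr9:57697363-57697612, plus strand: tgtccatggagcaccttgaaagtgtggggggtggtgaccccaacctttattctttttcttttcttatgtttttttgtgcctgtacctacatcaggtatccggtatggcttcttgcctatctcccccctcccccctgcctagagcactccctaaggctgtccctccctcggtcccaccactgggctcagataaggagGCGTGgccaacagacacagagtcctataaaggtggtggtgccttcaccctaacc
Cyp1b1, chr17:79715062-79715311, minus strand: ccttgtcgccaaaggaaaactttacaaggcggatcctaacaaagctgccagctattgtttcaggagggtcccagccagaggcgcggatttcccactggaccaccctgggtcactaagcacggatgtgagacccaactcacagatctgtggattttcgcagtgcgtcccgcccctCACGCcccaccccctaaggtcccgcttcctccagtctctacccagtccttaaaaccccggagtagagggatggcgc

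The libraries held 6705396 to 12933436 counts, and the members took 0.09997% to 0.1701% of them. Between 77 and 117 of the 136 members had at least 1 read in a library. Levels are given as CPM, counts per 1000000 scaled by TMM factors (0.647 to 1.28), and levels of different genes are compared only per kilobase of exon. Labelled-null SAL 1, wild-type ASP 2 and wild-type ASP 3 were least like the rest, with a median rank correlation to the other libraries of 0.899, 0.902 and 0.894 against 0.927 to 0.945. Tissue markers varied widely, with a summed keratinocyte level of 7947 to 24430 CPM, adipocyte 3680 to 9639 CPM, sebaceous gland 3840 to 9278 CPM and skeletal muscle 25980 to 119100 CPM. Summed hair markers stood at 616.5 CPM in wild-type SAL 1, and the next library, wild-type ASP 1, held 161.6 CPM. The lowest hair sum was 68.4 CPM, and red blood cell markers ran from 16.9 to 175.1 CPM. In bulk skin, fewer cells of a type and less RNA per cell cannot be told apart.

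Glutathione S-transferase Gstm1 stood highest of all members per length. Over the 12 libraries it averaged 177 ± 53.5 CPM per kilobase (SD), with its lowest library at 108 and the highest library of any other member at 106. Cyp2f2, known in mice for activating naphthalene in lung, followed at 53.2 ± 24.1 CPM per kilobase. Cyp2e1, which oxidises ethanol and acetone, came next at 45.3 ± 7.02, and Cyp2f2 and Cyp2e1 did not differ beyond their spread. Gstm3 (36.5 ± 13.1), Gstp2 (31.3 ± 17.8) and Gstp1 (28.6 ± 16.5) formed the following step, with ranges that overlapped one another. Aldh3b2, an aldehyde dehydrogenase of lipid-rich epithelia, stood at 17.3 ± 5.93 CPM per kilobase and Cyp2b19, an arachidonic acid epoxygenase of mouse keratinocytes, at 15 ± 4.94, again with overlapping ranges. The lowest tested member was Ugt2b35 at 0.156 ± 0.146 CPM per kilobase.

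**Figure D2:**
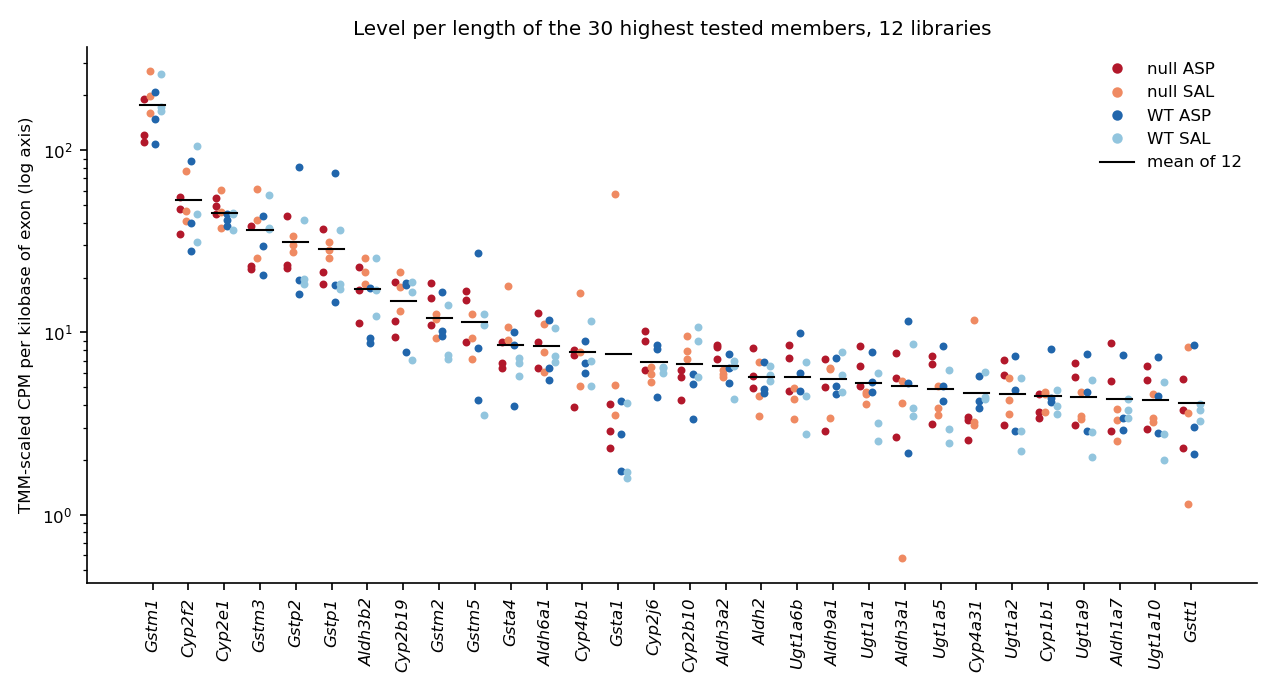
TMM-scaled CPM per kilobase of exon (log y axis) of the 30 tested members with the highest mean (x axis); each point is 1 of the 12 libraries, coloured by group, and the bar is their mean. Gstm1 stands above every other member, with a mean of 177, and single libraries stand far above the rest for Gsta1, Gstp1 and Gstp2.

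Of the 136 members, 73 had enough reads to test and 63 did not, so counts below cover the 73. Every Gsta, Gstm, Gstp and Ugt1 gene was tested (3, 7, 3 and 8), as were 19 of 21 Aldh, 3 of 4 Gstt, 2 of 3 Cyp1 and 8 of 19 Cyp4 genes. The liver-type branches were thin, with 16 of 47 Cyp2, 2 of 9 Cyp3 and 1 of 10 Ugt2 genes tested, and none of 15 Cyp2c genes. Cyp2c70, Cyp4a30b, Ugt2b38 and Ugt2b5 had no read in any library, and 32 members had under 10 reads in all 12 together. A count of 0 in a library allows a level of up to 0.232 to 0.447 CPM before TMM scaling (3 counts, counting error only). The highest total of an untested member was 68 reads, and the lowest total of a tested one was 63.

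The reads that untested members did receive came unevenly. Together the 15 Cyp2c rows, hydroxylases and epoxygenases best known from liver, held 39 reads in labelled-null SAL 1, 62 in wild-type ASP 2 and 22 in wild-type SAL 2, against 0 to 4 in each of the other 9 libraries. Labelled-null SAL 1 had reads in 9 and wild-type ASP 2 in 12 of the 15 genes. The untested Ugt2 rows gave 24 reads in labelled-null SAL 1, 14 in wild-type ASP 2, 4 in wild-type SAL 2 and none elsewhere. Cyp4a12a held 21 reads and Cyp4a12b 9 reads in wild-type SAL 2, and 0 or 1 in every other library. Each of these high libraries belongs to a different group, so no group as a whole stood apart.

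Liver markers were low in every library. Their summed level over 20 genes was 101.9 CPM in labelled-null SAL 1 and 22.0 to 48.6 CPM in the other 11 libraries. Among the defining genes Apoa1 had no read in any library, Ahsg had none in 11 of 12, and Alb lay between 0.569 and 8.96 CPM. Of the 20 markers, 4 were at 0 throughout. The sum in labelled-null SAL 1 came mainly from Serpina1a, an antitrypsin gene, at 64.5 CPM against 9.47 to 21.2 CPM in the other 11, and from Pck1, a gluconeogenic enzyme also made by fat cells, at 26.4 CPM. Pck1 was also high in wild-type SAL 2 at 25.5 CPM, while Apob, the carrier protein of liver lipoproteins, was highest in wild-type ASP 3 at 10.3 CPM. The part of liver-type RNA in the counts above was not tested.

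**Figure D3:**
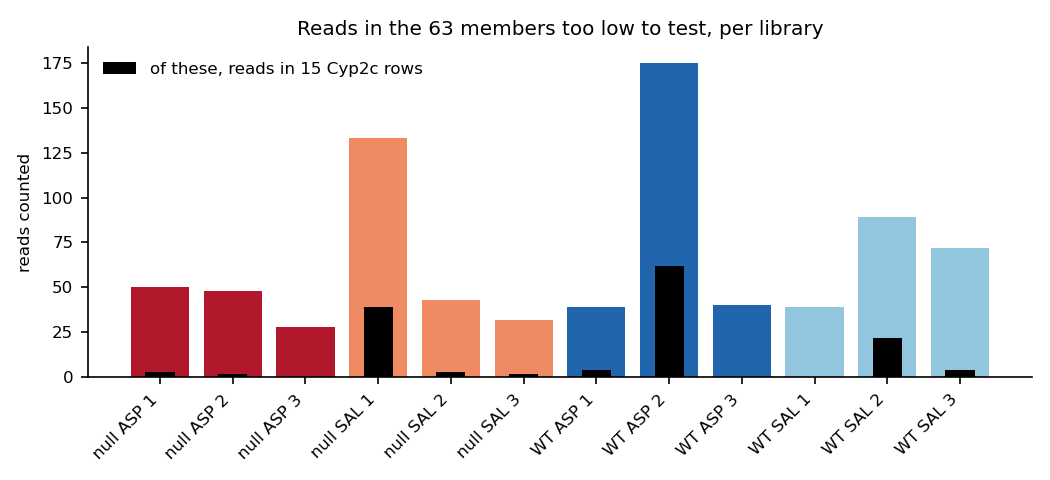
Reads counted (y axis, from 0) in the 63 members too low to test, per library (x axis), coloured by group; the narrow black bar is the part that fell in the 15 Cyp2c rows. Labelled-null SAL 1 with 133 reads and wild-type ASP 2 with 175 stand above the others, which hold 28 to 89.

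Within the 73 tested members the spread between libraries was wide. The coefficient of variation over the 12 libraries had a median of 42.9%, against 39.3% for all tested genes. It was lowest for Cyp2e1 at 15.5% and Aldh3a2 at 18.7%, and exceeded 100% for 6 members (8.22%, against 4.73% of all genes). These were Gsta1 at 207%, Aldh1a3 at 156%, Cyp2u1 at 126%, Cyp2j12 at 110%, Cyp2t4 at 107% and Cyp2j9 at 101%. Wild-type ASP 2 was the highest of the 12 libraries for 15 members (20.5%, against 13.8% of all genes) and labelled-null SAL 1 for 13 (17.8%, against 15.5%). Wild-type ASP 3, the highest library for 15.6% of all genes, was highest for 3 members (4.11%).

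The first comparison asked what the mould extract does in skin of each genotype. No member passed the test in either genotype. With edgeR's quasi-likelihood test and Benjamini-Hochberg adjustment over 15341 genes, 0 of 73 members were called in labelled-null skin and 0 of 73 in wild-type skin, and the share of all genes called was 0% in both. The smallest adjusted p of a member was 0.989 in labelled-null skin and 0.999 in wild-type skin. At an unadjusted p under 0.05 there were 2 members in labelled-null skin (background 4.52% of all genes) and 2 in wild-type skin (4.74%), a share of 2.74% each. DESeq2 and limma-voom also called 0 members in each, and of all genes DESeq2 called 2 lower in labelled-null skin and 1 higher and 1 lower in wild-type skin, and limma-voom called 0. The median log2 fold change of the members was -0.03 in labelled-null skin (all genes -0.01) and 0.11 in wild-type skin (all genes 0.02), and under other settings each median took either sign. Positive values were found for 36 members in labelled-null skin (49.3%, background 48.8%) and 41 in wild-type skin (56.2%, background 51.5%). Both counts hold all 8 Ugt1a rows, which share reads, so nothing is read from these shares. The standard error of a member's log2 fold change had a median of 0.504. Summed adipocyte markers in labelled-null skin stood at 4299 to 4910 CPM in labelled-null ASP and 5726 to 9639 CPM in labelled-null SAL skin, with no overlap. Of 15 such genes 4 were lower at an unadjusted p under 0.05 (background 2.97% lower) and none was called. In wild-type skin the adipocyte sums overlapped, at 3680 to 6917 CPM with ASP and 5540 to 7287 CPM with SAL. There 3 of 7 hair markers were lower at an unadjusted p under 0.05 (background 1.87% lower). Summed hair markers overlapped, at 161.6, 68.43 and 147.6 CPM in wild-type ASP and 616.5, 93.25 and 120.3 CPM in wild-type SAL skin. Wild-type SAL 1 stood apart from the other libraries in this sum. At an unadjusted p under 0.05, 2 of 15 macrophage and 2 of 12 mast cell markers were higher in wild-type skin (background 2.87% higher), and none was called. No other cell type list held over 1 such gene in either genotype. The part of these cell types in the member values was not tested.

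Among the P450 genes, the Cyp1 family, which oxidises polycyclic aromatic hydrocarbons, had overlapping groups. Cyp1a1 had 7.4, 6.06 and 3.19 CPM in labelled-null ASP skin, 6.23, 12.4 and 3.13 in labelled-null SAL skin, 8.12, 3.36 and 6.6 in wild-type ASP skin and 8.7, 4.93 and 5.16 in wild-type SAL skin. Each group held both low and high libraries, the highest being labelled-null SAL 2, and the ASP and SAL ranges overlapped in both genotypes. Its log2 fold change, ASP over SAL, was -0.38 ± 0.54 in labelled-null and -0.06 ± 0.54 in wild-type skin. Cyp1b1 had 26.9, 19.7 and 21.5 CPM in labelled-null ASP skin, 27.5, 26.8 and 21.4 in labelled-null SAL skin, 25.5, 24.4 and 47.5 in wild-type ASP skin and 28.3, 20.8 and 23.2 in wild-type SAL skin. Wild-type ASP 3 was the highest library by a factor of 1.68, and the fold changes were -0.15 ± 0.32 and 0.43 ± 0.32 in labelled-null and wild-type skin. Cyp1a2, a liver enzyme of the same family, was untested with at most 3 reads in a library.

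Cyp2b10, which the receptor Nr1i3 switches on in mouse liver, gave the smallest p among members when both genotypes were averaged. It had 13.1, 12 and 9.02 CPM in labelled-null ASP skin, 20.1, 16.6 and 15.1 in labelled-null SAL skin, 12.5, 7.09 and 11 in wild-type ASP skin and 19, 22.5 and 12.1 in wild-type SAL skin. All 3 labelled-null ASP libraries lay below all 3 SAL libraries of that genotype, and in wild-type skin the groups overlapped only through wild-type ASP 1 and wild-type SAL 3. The averaged log2 fold change was -0.71 ± 0.25 (unadjusted p = 0.0127), and edgeR's adjusted p was 0.864. It ran from -0.81 to -0.60 when each library was left out in turn. Nr1i3 itself stood at 0.0961 to 1.44 CPM.

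The most abundant Cyp2 genes overlapped between treatments in both genotypes. Cyp2e1 was the steadiest of them, at 107 ± 10.7 CPM in labelled-null ASP, 104 ± 25.1 in labelled-null SAL, 89.4 ± 6.45 in wild-type ASP and 90.8 ± 10.9 in wild-type SAL skin (SD, n = 3). Cyp2f2 had 96.9, 112 and 70.3 CPM in labelled-null ASP skin, 83.2, 156 and 93.9 in labelled-null SAL skin, 80.6, 56.4 and 176 in wild-type ASP skin and 90.5, 214 and 63.3 in wild-type SAL skin. Its highest libraries were 1 in each of the groups labelled-null SAL, wild-type ASP and wild-type SAL. Cyp2b19 ran from 29.5 to 89.1 CPM with overlap throughout.

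Low Cyp2 genes gave several values that rest on 1 library. Cyp2j9 had 6.73, 4.4 and 7.7 CPM in labelled-null ASP skin, 33.2, 5.5 and 3.51 in labelled-null SAL skin, 5.15, 5.51 and 7.26 in wild-type ASP skin and 8.34, 4.01 and 4.86 in wild-type SAL skin. Labelled-null SAL 1 was 3.99 times the next library, and the log2 fold change of -1.16 ± 0.65 in labelled-null skin became 0.48 without it. Cyp2j12 reached 23.4 CPM in labelled-null SAL 2, against 8.87 CPM in the next library. Cyp2u1, a fatty acid hydroxylase, reached 9.87 CPM in wild-type SAL 2, which was 4.75 times the next. Vitamin D 25-hydroxylase Cyp2r1 had 4.1, 4.39 and 8.06 CPM in wild-type ASP and 3.9, 3.39 and 2.58 CPM in wild-type SAL skin, groups that did not overlap, at a log2 fold change of 0.74 ± 0.56.

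Cyp2w1 had 6.92, 3.79 and 4.29 CPM in labelled-null ASP skin, 2.08, 2.39 and 2.18 in labelled-null SAL skin, 7.51, 1.59 and 5.41 in wild-type ASP skin and 4.89, 6.68 and 4.41 in wild-type SAL skin. The labelled-null SAL libraries were tight and low, below every labelled-null ASP and every wild-type SAL library. The log2 fold change of ASP over SAL was 1.17 ± 0.56 in labelled-null skin (unadjusted p = 0.0519) and -0.14 ± 0.54 in wild-type skin. The difference between genotypes was 1.30 ± 0.77 by the interaction term, with an adjusted p of 0.998 in edgeR. It was therefore not shown that the genotypes differ here.

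In the Cyp3 and Cyp4 families, 2 and 8 genes were tested and overlap between ASP and SAL prevailed. All 8 Cyp4 genes, fatty acid hydroxylases in the main, had negative log2 fold changes in labelled-null skin, from -1.26 to -0.18, and 6 of 8 did in wild-type skin, from -0.82 to 1.07. In labelled-null skin 1 library weighed on this. Labelled-null SAL 1 was the highest of the 12 for Cyp4a31 at 29.4 CPM, Cyp4b1 at 37.2 CPM, Cyp4f13 at 11.8 CPM and Cyp4f17 at 11.8 CPM, and it also held the highest summed adipocyte level, 9639 CPM, and the lowest keratinocyte level, 7947 CPM. Their part in these values was not tested. Cyp4f17 had 2.02, 3.26 and 2.97 CPM in labelled-null ASP and 11.8, 4.07 and 3.13 CPM in labelled-null SAL skin. Its log2 fold change was -1.19 ± 0.62, and -0.38 without that library.

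The most abundant Cyp4 gene was Cyp4b1, which activates the plant toxin 4-ipomeanol, with 16.9, 18.1 and 8.8 CPM in labelled-null ASP skin, 37.2, 11.5 and 17.6 in labelled-null SAL skin, 20.2, 13.5 and 15.3 in wild-type ASP skin and 26, 11.5 and 15.8 in wild-type SAL skin. Labelled-null SAL 1 was the highest library, followed by wild-type SAL 1, and ASP and SAL overlapped in both genotypes. Cyp4v3, counterpart of a human fatty acid hydroxylase lost in a retinal dystrophy, ran from 5.35 to 15.9 CPM over the 12 libraries. In the Cyp3 family, which carries much of hepatic drug oxidation, Cyp3a13 had 5.29, 2.65 and 5.83 CPM in labelled-null ASP skin, 7.51, 4.91 and 5.12 in labelled-null SAL skin, 5.15, 5.13 and 2.9 in wild-type ASP skin and 3.81, 4.11 and 2.66 in wild-type SAL skin. Labelled-null SAL 1 was again the highest library, and the log2 fold change of ASP over SAL was -0.35 ± 0.48 in labelled-null and 0.33 ± 0.48 in wild-type skin.

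Cyp2s1 and Cyp2j6 also overlapped between treatments in both genotypes. Cyp2s1, a P450 of epithelia including skin, ran from 2.24 CPM in wild-type ASP 2 to 21.8 CPM in wild-type ASP 1, so 1 group held both extremes. Cyp2j6, the most abundant tested gene of the Cyp2j group, had 22.5, 32.2 and 36.5 CPM in labelled-null ASP skin, 23.3, 21.4 and 19.3 in labelled-null SAL skin, 29.2, 30.8 and 16 in wild-type ASP skin and 23.4, 21.5 and 23.1 in wild-type SAL skin. Labelled-null ASP 2 and ASP 3 were its highest libraries and wild-type ASP 3 its lowest, and the fold changes were 0.51 ± 0.32 in labelled-null and 0.16 ± 0.32 in wild-type skin.

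Among aldehyde dehydrogenases, Aldh1a3, which makes retinoic acid from retinaldehyde, had the smallest p of all members in wild-type skin. It had 2.4, 2.12 and 3.3 CPM in labelled-null ASP skin, 4.31, 1.44 and 3.04 in labelled-null SAL skin, 4.02, 8.49 and 40.1 in wild-type ASP skin and 3.9, 2.88 and 5.85 in wild-type SAL skin. Wild-type ASP 3 was 4.73 times the next library, and the remaining 11 libraries lay between 1.44 and 8.49 CPM. The log2 fold change in wild-type skin was 2.04 ± 0.68 (unadjusted p = 0.00814) and became 0.56 without wild-type ASP 3. The same library stood apart for Abcb1a, an efflux pump, at 161.1 CPM against 3.11 to 7.38 CPM in the other 11, and for Sod1, superoxide dismutase, at 269 CPM against 20.0 to 63.8 CPM.

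Aldh1l2, the mitochondrial 10-formyltetrahydrofolate dehydrogenase, had 3.08, 2.73 and 9.9 CPM in labelled-null ASP skin, 2.4, 1.79 and 2.18 in labelled-null SAL skin, 9.26, 3.17 and 6.47 in wild-type ASP skin and 5.62, 3.08 and 4.63 in wild-type SAL skin. In labelled-null skin every ASP library lay above every SAL library, with labelled-null ASP 3 highest. The log2 fold change there was 1.29 ± 0.59 (unadjusted p = 0.0436), and 0.45 without that library. Aldh3a2, the fatty aldehyde dehydrogenase whose loss causes an ichthyosis in humans, had 47.8, 40.0 and 46.8 CPM in labelled-null ASP and 33.2, 31.9 and 34.9 CPM in labelled-null SAL skin. These groups did not overlap, at a log2 fold change of 0.43 ± 0.28, while the wild-type groups overlapped at 0.11 ± 0.28. The other abundant genes of the family, Aldh6a1 of valine breakdown and Aldh2 of acetaldehyde oxidation, overlapped between treatments in both genotypes. The vitamin A enzymes Aldh1a1 and Aldh1a2 did too, at 10.6 to 27.8 and 0 to 2.56 CPM.

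Aldh3b2, the aldehyde dehydrogenase highest per length, had 49.2, 36.8 and 24.2 CPM in labelled-null ASP skin, 54.8, 46.1 and 39.6 in labelled-null SAL skin, 37.5, 18.9 and 20.1 in wild-type ASP skin and 55.2, 26.4 and 36.8 in wild-type SAL skin. The SAL group held the highest library of each genotype, and groups overlapped, at a log2 fold change of -0.35 ± 0.36 in labelled-null and -0.63 ± 0.37 in wild-type skin. The wild-type value was -0.31 without wild-type SAL 1 and -1.03 without wild-type ASP 1. Aldh3a1, known as a crystallin-like enzyme of the cornea, ran from 1.12 CPM in labelled-null SAL 1 to 22.5 CPM in wild-type ASP 1. Aldh18a1, which makes proline precursors, had 7.59, 5.3 and 5.61 CPM in labelled-null ASP, 1.92, 7.3 and 5.12 in labelled-null SAL, 4.63, 8.96 and 2.9 in wild-type ASP and 9.15, 6.17 and 8.89 in wild-type SAL skin. Its groups overlapped, with labelled-null SAL 1 lowest, and its interaction term was 0.90 ± 0.73, or 0.54 to 1.45 with each library left out. Of the 19 tested Aldh genes, 12 had positive fold changes with ASP in labelled-null and 10 in wild-type skin.

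Glutathione S-transferases showed the same dependence on single libraries. Gsta1, an alpha-class enzyme, had 2.21, 3.87 and 2.75 CPM in labelled-null ASP skin, 4.95, 3.35 and 55.1 in labelled-null SAL skin, 1.66, 4.01 and 2.64 in wild-type ASP skin and 1.63, 3.91 and 1.52 in wild-type SAL skin. Labelled-null SAL 3 was 11.1 times the next library, and the groups otherwise overlapped. The log2 fold change in labelled-null skin was -2.84 ± 0.83 (unadjusted p = 0.00334), and -0.48 without that library. Gsta2, its close copy and no member, reached 76.4 CPM in the same library against 0.725 to 5.86 CPM in the other 11. Gsta1 shares 44.6% of its 50-base runs with other genes, mainly Gsta2. The Gsta1 count was 0.571 to 2.25 of the Gsta2 count, and the Gsta1 row is uncertain on its own.

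Gsta4, which conjugates the lipid peroxidation product 4-hydroxynonenal, had 8.08, 8.56 and 11.2 CPM in labelled-null ASP skin, 22.7, 11.5 and 13.6 in labelled-null SAL skin, 4.98, 10.7 and 12.7 in wild-type ASP skin and 7.34, 8.64 and 9.19 in wild-type SAL skin. All labelled-null ASP libraries lay below all labelled-null SAL libraries, with labelled-null SAL 1 highest, and the wild-type groups overlapped. The log2 fold change was -0.77 ± 0.41 in labelled-null skin, -0.43 there without labelled-null SAL 1, and 0.17 ± 0.41 in wild-type skin. Gsta3 reached 21.9 CPM in labelled-null ASP 3 and 21.7 CPM in wild-type ASP 3, with no other library above 14.8 CPM.

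Gstm1, the most abundant member, had 281, 163 and 179 CPM in labelled-null ASP skin, 236, 399 and 293 in labelled-null SAL skin, 219, 158 and 309 in wild-type ASP skin and 388, 242 and 255 in wild-type SAL skin. The highest library of each genotype was a SAL library, and each pair of groups overlapped. The log2 fold change was -0.58 ± 0.35 in labelled-null, -0.37 ± 0.35 in wild-type and -0.47 ± 0.25 averaged over both (unadjusted p = 0.0729). Gstm3, which shares sequence with it, averaged -0.55 ± 0.26. Gstp1, the pi-class enzyme of epithelia, had 33.1, 57.5 and 28.7 CPM in labelled-null ASP skin, 39.5, 48.5 and 44 in labelled-null SAL skin, 22.9, 116 and 28.1 in wild-type ASP skin and 26.6, 28.7 and 56.8 in wild-type SAL skin. Wild-type ASP 2 was 2.02 times the next library. Its log2 fold changes were -0.14 ± 0.50 in labelled-null and 0.57 ± 0.50 in wild-type skin.

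Lower mu-class genes had fold changes of either sign. Gstm5 had 11.3, 19.3 and 21.7 CPM in labelled-null ASP skin, 12, 16.1 and 9.11 in labelled-null SAL skin, 10.5, 35 and 5.41 in wild-type ASP skin and 4.53, 16 and 14.1 in wild-type SAL skin. Wild-type ASP 2 was the highest and wild-type SAL 1 the lowest library, and groups overlapped. Its log2 fold change was 0.49 ± 0.58 in labelled-null and 0.56 ± 0.58 in wild-type skin, and that of Gstm2 was 0.43 ± 0.36 and 0.34 ± 0.36 in labelled-null and wild-type skin. Positive values were seen for 3 of the 7 Gstm genes in labelled-null skin and for 2 in wild-type skin. The median of the 7 was -0.33 in labelled-null and -0.37 in wild-type skin, and the lowest values were -1.04 and -0.95.

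Gstt3, of the theta class, had 4.9, 7.43 and 10.2 CPM in labelled-null ASP skin, 6.39, 6.1 and 4.84 in labelled-null SAL skin, 10.5, 5.88 and 9.38 in wild-type ASP skin and 4.62, 4.73 and 5.62 in wild-type SAL skin. The 3 wild-type ASP libraries lay above the 3 wild-type SAL libraries, whereas the labelled-null groups overlapped. The log2 fold changes were 0.38 ± 0.42 in labelled-null and 0.78 ± 0.42 in wild-type skin. Gstt1 and Gstt2 overlapped between treatments in both genotypes, and Gsto1, a reductase of dehydroascorbate, did as well at 2.16 to 7.90 CPM.

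The Ugt1a rows had positive fold changes with ASP in both genotypes, none past the threshold. All 8 had positive log2 fold changes, from 0.23 to 0.70 in labelled-null and from 0.50 to 0.61 in wild-type skin, and from 0.38 to 0.62 averaged. Because these rows share reads, they are read here as 1 observation and not as 8. Ugt1a6b, from the branch that conjugates phenols, had 11.4, 20.2 and 17.2 CPM in labelled-null ASP skin, 11.8, 8.02 and 10.3 in labelled-null SAL skin, 14.3, 23.5 and 11.4 in wild-type ASP skin and 10.7, 6.58 and 16.3 in wild-type SAL skin. Ugt1a1, the bilirubin enzyme, had 11.3, 18.7 and 14.6 CPM in labelled-null ASP skin, 10.5, 8.97 and 10.2 in labelled-null SAL skin, 12, 17.3 and 10.4 in wild-type ASP skin and 7.07, 5.65 and 13.3 in wild-type SAL skin. The labelled-null groups of Ugt1a1 did not overlap, and the wild-type groups did, with wild-type SAL 3 among the ASP libraries. The averaged log2 fold changes were 0.62 ± 0.29 (unadjusted p = 0.0463) and 0.60 ± 0.28 (unadjusted p = 0.0465), each at an adjusted p of 0.864 in edgeR.

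Across the members, the ASP and SAL groups did not overlap for 6 genes in labelled-null skin (8.22% of 73, background 10.5%) and for 2 in wild-type skin (2.74%, background 6.79%). In labelled-null skin Aldh1l2, Aldh3a2, Cyp2w1 and Ugt1a1 were the higher and Cyp2b10 and Gsta4 the lower ones. In wild-type skin they were Cyp2r1 and Gstt3, both higher. These shares lie below those of all genes. Averaged over genotypes, 6 members had an unadjusted p under 0.05 (8.22%, background 5.64%): Aldh1l2, Ugt1a1 and Ugt1a6b on the higher side and Cyp2b10, Cyp4f17 and Gsta1 on the lower. Since Ugt1a1 and Ugt1a6b are rows of 1 locus that share reads, nothing is read from that share. Without labelled-null SAL 3 the averaged Gsta1 value was -0.12, against -1.30 with it. None was called by edgeR (background 0%), DESeq2 or limma-voom, which each called 0 of all genes, and no member separated all 6 ASP from all 6 SAL libraries (background 0.183%). Averaged values were positive for 37 members (50.7%, background 49.1%), all 8 Ugt1a rows among them. The labelled-null and wild-type contrasts use different libraries, but the averaged one reuses both.

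**Figure D4:**
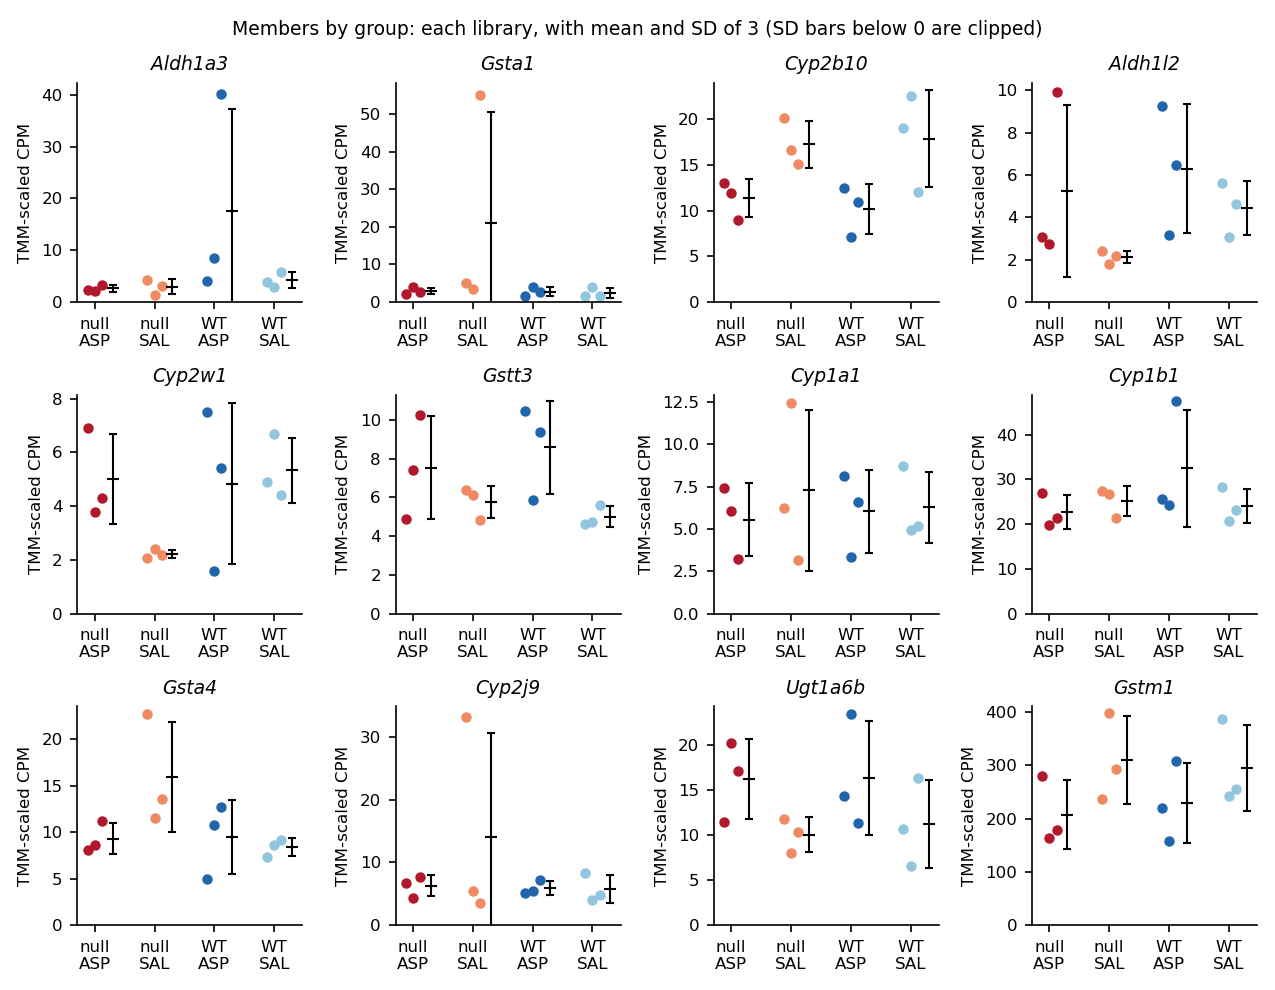
TMM-scaled CPM (y axis, from 0) of 12 members in the groups labelled-null ASP, labelled-null SAL, wild-type ASP and wild-type SAL (x axis, left to right); coloured points are the 3 libraries of a group and the black bar is their mean with SD, cut off at 0 where it would pass below. Aldh1a3, Gsta1 and Cyp2j9 each have 1 library far above the other 11, at 40.1, 55.1 and 33.2 CPM, and Cyp2b10 has lower ASP means in both genotypes, with an adjusted p of 0.864.

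The second comparison set the genotypes against each other under the same patch. Again no member passed the test. edgeR with Benjamini-Hochberg adjustment called 0 of 73 members under ASP and 0 of 73 under SAL (background 0% in both), and DESeq2 and limma-voom called 0 members too. Of all genes, DESeq2 called 2 higher and 3 lower under ASP and 6 higher under SAL, and limma-voom called 0. The smallest adjusted p of a member was 0.999 under ASP and 1 under SAL. At an unadjusted p under 0.05 there was 1 member under ASP (1.37%, background 3.07%) and there were 5 under SAL (6.85%, background 4.37%). The median log2 fold change of the members, labelled-null over wild type, was 0.04 under ASP (all genes -0.04) and 0.14 under SAL (all genes 0.01), and each took either sign under other settings. It was positive for 40 members under ASP (54.8%, background 46.6%) and for 47 under SAL (64.4%, background 51.3%). Of the 8 Ugt1a rows, which share reads, 5 were among them under ASP and 7 under SAL. Nothing is therefore read from these shares.

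Under ASP, the single member at that level was Aldh1a3, with a log2 fold change of -2.74 ± 0.71 (unadjusted p = 0.00123). The labelled-null libraries held 2.4, 2.12 and 3.3 CPM and the wild-type libraries 4.02, 8.49 and 40.1 CPM. The groups did not overlap, and without wild-type ASP 3 the value was -1.26. DESeq2 gave Aldh1a3 an adjusted p of 0.0657 here, the smallest of any member under any setting. Groups also failed to overlap for Cyp2e1 and Cyp3a57 on the higher side and Cyp4a31 and Gstt2 on the lower, 5 members in all (6.85%, background 7.62%).

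Cyp2e1 had 96.8, 118 and 106 CPM in labelled-null ASP and 82.9, 95.8 and 89.5 CPM in wild-type ASP skin, at a log2 fold change of 0.26 ± 0.26. Cyp3a57 had 5.19, 4.78 and 5.39 CPM in labelled-null ASP and 2.18, 3.08 and 4.36 CPM in wild-type ASP skin, at 0.68 ± 0.52. Gstt2, of the theta class, had 0.481, 1.36 and 1.76 CPM in labelled-null ASP and 1.83, 6.07 and 2.64 CPM in wild-type ASP skin. Its log2 fold change was -1.54 ± 0.74, and -0.89 without wild-type ASP 2. The highest labelled-null library lay just under the lowest wild-type one for Gstt2, and the reverse held for Cyp2e1. Under ASP, 16 of 19 keratinocyte, 14 of 17 sebaceous gland and 11 of 15 macrophage markers had positive values. So did 1 of 12 mast cell, 3 of 15 fibroblast and 3 of 15 adipocyte markers (background 46.6%). At an unadjusted p under 0.05, 1 keratinocyte and 1 sebaceous gland marker were higher, and 2 mast cell, 1 adipocyte and 1 liver marker lower. None was called, and their part in the member values was not tested.

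Under SAL, Gsta1 had the smallest p, at a log2 fold change of 3.18 ± 0.85 (unadjusted p = 0.00162), and 0.82 without labelled-null SAL 3. Cyp2j12 gave 1.78 ± 0.71, and 0.33 without labelled-null SAL 2. For the remaining 3, leaving out any 1 library gave -1.41 to -0.89 for Cyp2d22, -1.38 to -1.07 for Cyp2w1 and 0.58 to 1.12 for Gsta4. Cyp2d22, the mouse relative of the human drug-oxidising CYP2D6, had 2.4, 2.03 and 3.23 CPM in labelled-null SAL and 7.43, 3.29 and 6.15 CPM in wild-type SAL skin. These groups did not overlap, at -1.13 ± 0.50 (unadjusted p = 0.0376). Cyp2w1 was at -1.26 ± 0.56 and Gsta4 at 0.92 ± 0.41, and neither pair of groups overlapped.

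Groups did not overlap under SAL for 7 members (9.59%, background 8.06%). Cyp2b23, Cyp3a13, Gsta3 and Gsta4 were on the higher side in labelled-null skin, and Aldh1l2, Cyp2d22 and Cyp2w1 on the lower. All 3 Gsta genes had positive log2 fold changes, from 0.56 to 3.18, and 7 of 8 Cyp4 genes did. Markers of several cell types differed in level between genotypes under SAL, none of them called. Summed endothelial markers stood at 107.1 to 225.7 CPM in labelled-null SAL and 229.7 to 264.6 CPM in wild-type SAL skin, with no overlap, and 5 of 15 were lower at an unadjusted p under 0.05 (background 2.16% lower). At that level 4 of 15 macrophage, 3 of 17 sebaceous gland and 2 of 6 tested liver markers (Serpina1a and Apob) were higher (background 2.21% higher), and all 6 liver markers had positive values. The summed levels of these overlapped, at 734.2 to 1571 CPM in labelled-null SAL and 642.3 to 850.7 CPM in wild-type SAL skin for macrophages, and 4515 to 8246 CPM in labelled-null SAL and 4030 to 7260 CPM in wild-type SAL skin for sebaceous glands. Of 7 hair markers 2 were lower, and adipocyte and skeletal muscle sums overlapped with 1 of 15 genes each at that level. Hair sums overlapped too, at 142 to 156.4 CPM in labelled-null SAL and 93.25 to 616.5 CPM in wild-type SAL skin. The value of 616.5 CPM belongs to wild-type SAL 1 alone. The part of these cell types in the member values was not tested.

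Averaged over treatments, 5 members had an unadjusted p under 0.05 (6.85%, background 3.74%), and none was called by edgeR, DESeq2 or limma-voom. Of all genes edgeR called 1 (0.00652%), DESeq2 6 higher and 2 lower, and limma-voom 2 higher and 1 lower. Aldh1a3 gave -1.64 ± 0.49, and -0.90 without wild-type ASP 3. Gsta1 gave 1.64 ± 0.58, and 0.46 without labelled-null SAL 3. Cyp2b23, a low P450 gene, had 1.44, 6.29 and 3.63 CPM in labelled-null ASP skin, 2.24, 3.59 and 1.71 in labelled-null SAL skin, 2.1, 2.52 and 0.396 in wild-type ASP skin and 0.634, 1.23 and 1.22 in wild-type SAL skin. Its averaged log2 fold change was 1.22 ± 0.52 (unadjusted p = 0.0319, adjusted p = 1 in edgeR), with 1 labelled-null library, ASP 2, highest. Cyp2j12 and Gstt2 completed the 5, at 1.08 ± 0.50 and -1.13 ± 0.53, and the Cyp2j12 value was 0.35 without labelled-null SAL 2. Values were positive for 44 members (60.3%, background 47.4%). Of the 8 Ugt1a rows, which share reads, 7 were among them, so nothing is read from this share. Values were also positive for 14 of 17 sebaceous gland, 18 of 19 keratinocyte and 13 of 15 macrophage markers. Of these, 7 sebaceous gland, 0 keratinocyte and 3 macrophage markers were higher at an unadjusted p under 0.05 (background 1.69% higher), and none was called. Other lists went the other way, with positive values for 4 of 15 endothelial, 2 of 15 skeletal muscle and 2 of 12 mast cell markers. In those lists 2 endothelial, 0 skeletal muscle and 1 mast cell markers were lower at that level (background 2.05% lower). The part of these cell types in the members' values was not tested. No member separated all 6 labelled-null from all 6 wild-type libraries (background 0.202%).

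The interaction asked whether ASP acts differently in the 2 genotypes. No member was called (background 0%), the smallest adjusted p in edgeR was 0.998, and DESeq2 and limma-voom called none, while of all genes DESeq2 called 1. At an unadjusted p under 0.05 there were 2 (2.74%, background 3.81%), Gsta1 at -3.09 ± 1.16 and Aldh1a3 at -2.21 ± 0.97. Without labelled-null SAL 3 the first was -0.72, and without wild-type ASP 3 the second was -0.72. The members' median was -0.13 against -0.06 for all genes, with a median standard error of 0.712. It ran from -0.43 to 0.23 under other settings, the lowest without a filter on low counts, where 132 members enter. The interaction term was positive for 25 members (34.2%, background 46.7%). Of the 8 Ugt1a rows, which share reads, 1 was among them, so nothing is read from this share. The term was negative for all 6 tested liver markers, 2 of them at an unadjusted p under 0.05 (Apob and Serpina1a). All 12 mast cell markers were negative too, 1 at that level. Of 15 macrophage and 15 adipocyte markers, 2 and 1 were lower at that level (background 2.33% lower). Other lists went the other way. Values were positive for 13 of 15 skeletal muscle markers, 1 at that level, and 2 of 7 hair markers were higher (background 1.48% higher). Summed hair markers of wild-type SAL 1, at 616.5 CPM, stood above every other library, the next at 161.6 CPM. The part of these cell types in the members' values was not tested.

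**Figure D5:**
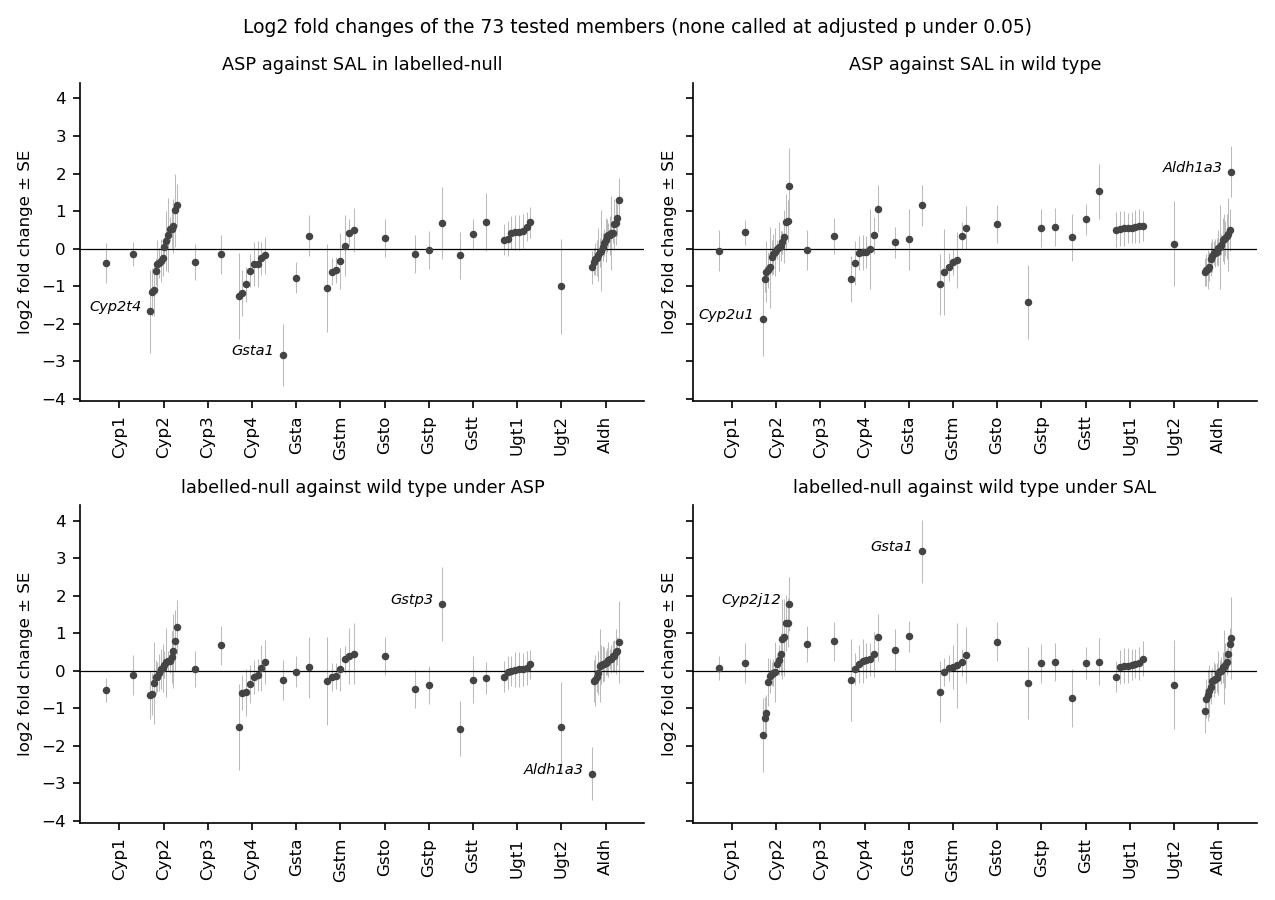
Log2 fold change with its standard error (y axis) of the 73 tested members, arranged by family (x axis), in the 4 comparisons of groups; each point is 1 gene from the edgeR fit and the names mark the 2 largest changes in size. Most members lie within 1 unit of 0, and Gsta1 and Aldh1a3 lie farthest out. The far Gsta1 values rest mainly on labelled-null SAL 3. Without wild-type ASP 3, Aldh1a3 in wild-type skin is 0.56 in place of 2.04. Under ASP, labelled-null over wild type, Aldh1a3 is -1.26 without that library, in place of -2.74.

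Genes that work with these enzymes were described from 5 lists. None of their tested genes was called in any of the 7 comparisons. Of 19 tested regulators, such as Ahr, Arnt and Nfe2l2, 9 had positive fold changes for ASP over SAL in labelled-null skin (background 48.8%). In wild-type skin 5 did (background 51.5%), and with so few genes nothing is read from these counts. Arnt, the partner of Ahr, had the smallest p of them, with 40.1, 45.9 and 40.8 CPM in labelled-null ASP and 26.5, 20.7 and 28 CPM in labelled-null SAL skin, groups that did not overlap. Its log2 fold change was 0.75 ± 0.28 (unadjusted p = 0.0165, adjusted p = 0.989 in edgeR). Arnt was the 1 regulator of 19 at an unadjusted p under 0.05 there (5.26%, background 4.52%). Groups did not overlap for 10.5% of all genes in that comparison. Of 37 tested redox partners and other oxidising enzymes, 1 had an unadjusted p under 0.05 in labelled-null skin (2.7%, background 4.52%). This was the P450 reductase Por, with 50.6, 48.5 and 34.5 CPM in labelled-null ASP and 73.3, 73.5 and 66.2 CPM in labelled-null SAL skin, at -0.67 ± 0.27.

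Of 30 tested conjugating enzymes and transporters, unadjusted p under 0.05 was met by 2 in labelled-null skin (1 higher, 1 lower) and by 1 in wild-type skin, Abcb1a. The background at that level was 4.52% of all genes in labelled-null and 4.74% in wild-type skin, and these counts were 6.67% and 3.33% of the list. Of 34 glutathione and thioredoxin genes it was met by 2 in labelled-null skin, both lower (5.88%), and by 3 in wild-type skin, all higher (8.82%). Those 3 include Sod1, which stood apart in wild-type ASP 3. Of 26 retinoid genes it was met by none in labelled-null skin and by 2 in wild-type skin, 1 in each direction (7.69%). Between genotypes, those 5 lists in the same order held 0, 1, 1, 1 and 3 such genes under ASP (background 3.07%) and 0, 0, 1, 0 and 0 under SAL (background 4.37%). With so few genes in each list, nothing is read from these shares. The list medians of ASP over SAL lay between -0.03 and 0.24 in labelled-null skin and between -0.15 and 0.22 in wild-type skin, beside -0.01 and 0.02 for all genes.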

How the data were processed

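The data are 12 RNA-seq libraries of mouse skin, grouped by their labels into 4 groups of 3. The deposited table holds counts, whole reads per Entrez Gene ID without normalization. Of its 18 columns, 12 match samples and 6 match none and were set aside. Per the submitters' processing notes, bcl2fastq, CASAVA 1.8, TopHat, DESeq and mm10 were used, in roles not stated. How reads were counted, on which annotation and with which strand setting, is not given in the sources used here, so genes that overlap or share sequence cannot be fully separated. Totals per library ran from 6705396 to 12933436 counts.

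Symbols, exon lengths and positions came from the mouse annotation, and 23372 of 23469 gene IDs matched a symbol. Reading the prefixes as P450 families 1 to 4 gave 136 members, and the bare prefix would give 151. Genes passing filterByExpr were scaled by TMM and tested by edgeR 4.0.16 (quasi-likelihood, robust, R 4.3.3) with 1 coefficient per group. The threshold was an adjusted p (Benjamini-Hochberg, 15341 genes) under 0.05 in each of 7 comparisons, and the script was tested on simulated data. Alternatives included DESeq2 1.42.0, limma-voom (limma 3.58.1), other scalings and filters, a replicate block, each library left out and the 151 members. The settings leaving out 2 libraries and keeping 1 Ugt1a row in the median were chosen after seeing the data.

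Named genes were, per comparison, up to 5 tested members in each direction with the smallest p, the 3 most abundant members of each prefix group, and listed genes on which the text turns. Members named beyond this rule were singled out after their values were seen. The members and lists were chosen with earlier results of these data known.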

Additional observations from a re-analysis of the deposited data

How the results depend on the processing

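No member was called in any of the 7 comparisons under any of the 24 other settings in which calls were counted, which gave 165 counts of 0. This includes the replicate block, which called 0 members in every comparison, and each library left out in turn, with a range of 0 to 0. The smallest adjusted p of a member was 0.0657, and 0 to 13 members had an unadjusted p under 0.05. Same-numbered libraries of different groups correlated at -0.211 to 0.157 in their deviations from the group means. Differently numbered libraries were not set beside them, so whether the replicate numbers pair the libraries was not settled. The fit on the compared libraries alone could not differ for the interaction and the averaged comparisons, which use all 12. The members' median log2 fold change took either sign in every comparison over all settings, from -0.43 to 0.23 for the interaction, -0.20 to 0.21 for ASP over SAL in labelled-null, -0.04 to 0.26 in wild-type skin and -0.09 to 0.11 averaged. For labelled-null over wild type it ran from -0.07 to 0.30 under ASP, -0.01 to 0.28 under SAL and -0.04 to 0.21 averaged. The extremes of -0.43, -0.20 and 0.26 came from the setting without a filter on low counts, where the median covers 132 members and not 73. The lowest value under SAL, -0.006 without wild-type SAL 2, lay close to 0. Leaving out 1 library moved 47 of the 70 fold changes of named members by over 1.5 times. Of 1569 fold changes of named members, 11 turned sign, and the cause was not tested beyond the library named. These members were named by small p in the same data, so the count of 11 is no measure of stability. Cyp2j9, ASP over SAL in labelled-null skin, was 0.17 by limma-voom, ran from -1.616 to 0.477 with each library left out, the highest being without labelled-null SAL 1, and was 0.4769 and 0.4764 when wild-type ASP 2 or ASP 3 was also left out. Under SAL, labelled-null over wild type, Cyp2j9 was -0.20 by limma-voom, ran from -0.3514 to 1.742, and was -0.3519 and -0.3513 without the same pairs. Ugt2b35 under ASP ran from -1.952 to 0.23 (without wild-type ASP 2), Cyp2u1 under SAL from -2.234 to 0.0424 (without wild-type SAL 2), and the interaction of Cyp2j12 from -2.24 to 0.0348 (without labelled-null SAL 2). At this depth 63 members were too low to test.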
